A study of Mus musculus with 9 samples.

Results

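Pericytes are the cells that wrap capillaries and small venules, and 10 genes used as their markers were followed in the penile tissue of rats after injury of the major pelvic ganglia. The genes are Ndufa4l2, Heyl, Rgs5, Pdgfrb, Kcnj8, Abcc9, Notch3, Higd1b, Cox4i2 and Cspg4, picked by symbol. Of these 10, 9 had a row among the 21124 genes of the count tables, and all 9 passed the low-count filter that left 15509 genes. Higd1b was not analysed here.

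There were 3 groups of 3 libraries, all from rats that had surgery. In the Sacral NC group the major pelvic ganglia were clamped on both sides and the animals then received sacral neural crest cells, which the series title calls hPSC-derived. The Injury group had the clamping alone, and the Sham group had the operation without it. Penile tissue was taken 4 weeks later. The labels give no strain, age or sex of the rats and name no mock transplantation for the Injury group, so the cells and the transplantation procedure cannot be told apart. The labels name mouse as the organism and pluripotent stem cells as the cell type, against rat titles, a rat tissue label and rat gene identifiers, and the data were read as rat penile tissue.

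Pericytes and the smooth muscle cells of larger vessels form the mural layer around the endothelium. Endothelial cells attract pericytes through the growth factor PDGF-B, which acts on the receptor PDGFRB, and Notch ligands on endothelium act on NOTCH3 in the mural cell. Pericytes also carry a potassium channel that opens when ATP is low, through which they help set local blood flow. In the penis, mural cells surround the cavernous sinusoids and arteries whose filling makes an erection. Few of these markers belong to pericytes alone: vascular smooth muscle shares several, and Pdgfrb and Cspg4 are also made by fibroblasts and other stromal cells. In RNA of whole tissue, fewer cells of a type and less RNA per cell cannot be told apart.

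Total counts ran from 15442190 to 18283418 per library. Skeletal muscle genes made up 0.251 % of the reads of Injury 1, 3.19 % in Injury 2, 0.29 % in Sacral NC 2 and 1.11 % in Sham 1, and between 0.00522 % and 0.0123 % in the other 5 libraries. These 4 are called muscle-containing below. On the first principal component (49.8 % of the variance) Injury 3 also lay on their side. Collagen genes took 15.1 % to 18.6 % of the counts in the Injury libraries, against 3.77 % to 4.52 % in Sham, and 2.15 % to 5.2 % in Sacral NC.

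**Figure D1:**
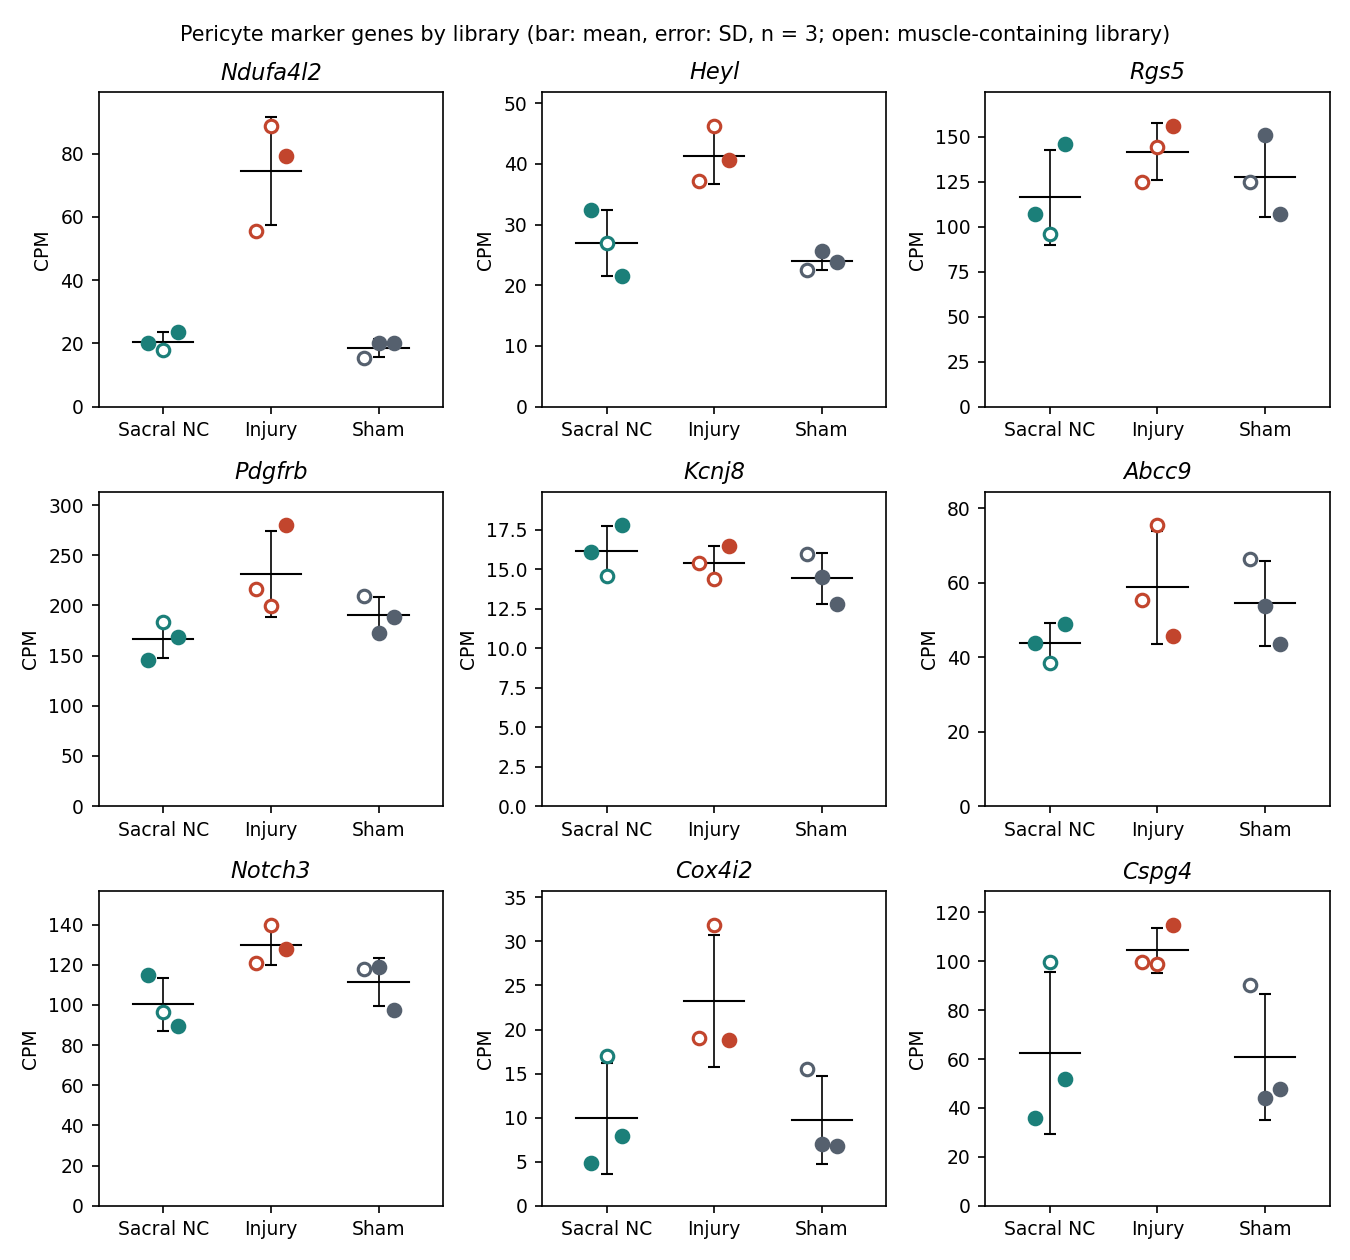
Level of 9 pericyte marker genes in CPM (read counts scaled to library size, vertical axes) in the Sacral NC, Injury and Sham libraries, with open circles for muscle-containing libraries, bars for the mean and error bars for the SD (n = 3). All 3 Injury libraries lie above the other 6 for Ndufa4l2, Heyl, Notch3 and Cox4i2, while Kcnj8 stays between 12.8 and 17.8 CPM everywhere.

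Clamping alone was compared with sham surgery to ask how these genes stood after injury of the ganglia. Ndufa4l2 rose 4.01-fold in Injury (95% interval 2.92 to 5.51) and Heyl 1.72-fold (1.35 to 2.19). The other 7 did not pass, and Rgs5, Kcnj8 and Abcc9 had folds of 1.11, 1.07 and 1.08. The edgeR test thus called 2 of 9 genes, both higher, where 4.43 % of all tested genes were called (3.09 % higher and 1.34 % lower). All 9 log2 fold changes lay above 0, with a median of 0.28, against −0.04 for all tested genes, of which 45 % lay above 0. The 9 genes were chosen with earlier results of these data known and share the same libraries. Counts of their signs, here and below, are thus a description. For 5 of the 9, every Injury library lay above every Sham library, which holds for 15.4 % of all tested genes, while 19.9 % had every Injury library below every Sham library (35.3 % in either direction).

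Transplantation after clamping was compared with clamping alone. Ndufa4l2 fell to 0.276 of its Injury level in Sacral NC (95% interval 0.201 to 0.379) and Heyl to 0.652 (0.513 to 0.83). Again 2 of 9 were called, both lower, where 6.96 % of all tested genes were called (3.7 % lower and 3.26 % higher). Of the log2 fold changes 8 lay below 0, with a median of −0.48, against 0.03 for all tested genes. All Sacral NC libraries lay below all Injury libraries for Ndufa4l2, Heyl, Pdgfrb, Notch3 and Cox4i2, 5 of 9 genes, against 12.4 % of all tested genes (26.4 % with no overlap in either direction). This comparison shares the 3 Injury libraries with the one before, so the opposite signs are not independent of each other.

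Sacral NC was also set against Sham, which asks how far transplanted rats lay from rats without injury. The edgeR test called 0 of the 9 genes and 0 of 15509 genes in all (0 %). At an unadjusted p under 0.05 it gave 0 of the 9 and 1232 of all (7.94 %), and DESeq2 called 0 of the 9 and 61 of all. The log2 fold changes ran from −0.31 for Abcc9 to 0.17 for Heyl, with a median of 0.02. For Ndufa4l2 the 95% interval of the fold was 0.813 to 1.51 and for Heyl 0.881 to 1.43. Libraries of these groups overlapped for all 9 genes, while 13.3 % of all tested genes had no overlap (6.72 % higher and 6.53 % lower in Sacral NC).

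**Figure D2:**
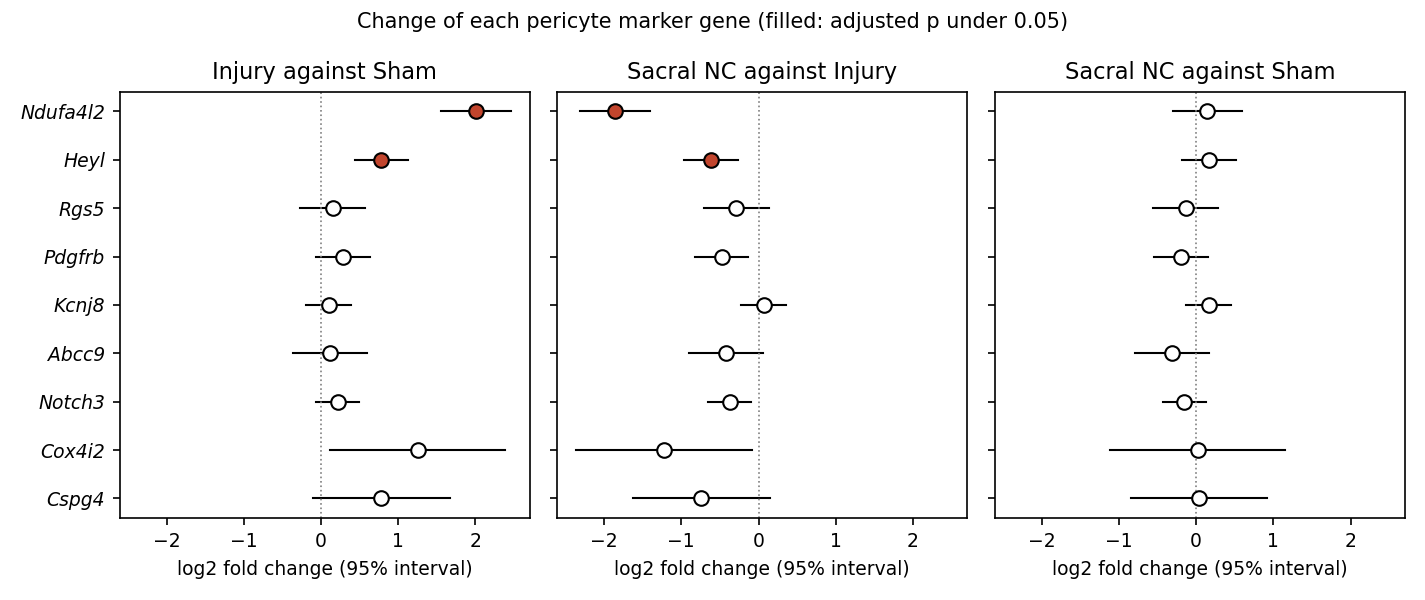
Log2 fold change (horizontal axis) of 9 pericyte marker genes in 3 comparisons, with 95% intervals from the edgeR fit as lines and filled circles for an adjusted p under 0.05. Ndufa4l2 and Heyl are filled in the first 2 panels, at 2.00 and 0.78 in Injury against Sham and at −1.86 and −0.62 in Sacral NC against Injury, and no gene is filled in the third.

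Of the pericyte genes tied to the respiratory chain, Ndufa4l2 and Cox4i2, only Ndufa4l2 (ENSRNOG00000031851, chromosome 7, 63356883 to 63359010 in the tables, which name no rat build) was called. It encodes a mitochondrial protein related to NDUFA4, a subunit of cytochrome c oxidase, and is known as a target of the hypoxia factor HIF-1. Its level was 20.1, 17.9 and 23.7 CPM in Sacral NC, 55.5, 88.8 and 79.1 CPM in Injury, and 15.3, 20.1 and 20.2 CPM in Sham. The Injury libraries all stood above 50 CPM, and the Sacral NC and Sham libraries overlapped. The log2 fold change was 2.00 ± 0.20 in Injury against Sham (SE, adjusted p = 0.00573 by edgeR), and −1.86 ± 0.20 in Sacral NC against Injury (adjusted p = 0.00534). By p it ranked 14 of 15509 genes in Injury against Sham and 26 in Sacral NC against Injury. The call held whichever library was left out, with log2 fold changes from 1.86 to 2.18 and from −2.03 to −1.71. In the muscle-containing libraries Ndufa4l2 stood at 17.9 CPM in Sacral NC 2, 55.5 and 88.8 CPM in Injury 1 and 2, and 15.3 CPM in Sham 1. Among the other 5 it stood at 20.1 and 23.7 CPM in Sacral NC 1 and 3, 79.1 CPM in Injury 3, and 20.1 and 20.2 CPM in Sham 2 and 3. Injury stood above the other groups on each side of that split, but among the other 5 it was represented by Injury 3 alone. In the authors' deposited tables its log2 fold change was −2.04 for Sham over Injury, the reverse direction (adjusted p = 3.56e-17), and −1.88 for Sacral NC over Injury (adjusted p = 1.37e-14).

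The annotation places 50 bases of Ndufa4l2 over the end of Shmt2, a folate enzyme gene on the other strand, so reads there could be shared. Shmt2 averaged 33.7 CPM in Injury and 25.8 CPM in Sham, a log2 fold change of 0.38 ± 0.20 (SE) that did not pass (adjusted p = 0.3 by edgeR). Ndufa4, the paralog, had a log2 fold change of 0.51 ± 0.21 in Injury against Sham and also did not pass (adjusted p = 0.199). Counted against it within each library, there were 30.0, 22.5 and 35.3 Ndufa4l2 reads per 100 Ndufa4 reads in Sacral NC, 67.3, 71.4 and 113 in Injury, and 20.2, 34.2 and 34.0 in Sham. The lowest Injury ratio was well above the highest of the other 6 libraries, and this ratio does not depend on the scaling between libraries.

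Cox4i2 (ENSRNOG00000007827, chromosome 3, 141228443 to 141239331) encodes the alternative isoform of subunit 4 of cytochrome c oxidase, best known from lung and from oxygen sensing cells. Its level was 4.87, 17.0 and 7.93 CPM in Sacral NC, 19.0, 31.9 and 18.8 CPM in Injury, and 15.5, 7.03 and 6.75 CPM in Sham. The Injury libraries were above all others, by a small margin over Sacral NC 2 and Sham 1. The log2 fold change was 1.25 ± 0.50 in Injury against Sham and −1.23 ± 0.50 in Sacral NC against Injury, and neither passed (adjusted p = 0.19 and 0.162 by edgeR). Of 9 fits that each left out 1 library, 1 called the second, without Sacral NC 2, at −1.86 (adjusted p = 0.0293), and without Sacral NC 1 it was −0.90 (adjusted p = 0.376). Its common isoform gene Cox4i1 had a log2 fold change of 0.01 ± 0.14 in Injury against Sham (SE, adjusted p = 0.965). There were 1.37, 5.84 and 2.65 Cox4i2 reads per 100 Cox4i1 reads in Sacral NC, 7.34, 10.8 and 9.02 in Injury, and 6.05, 2.67 and 2.85 in Sham. The muscle-containing libraries were the highest of Sacral NC and Sham by this ratio too.

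**Figure D3:**
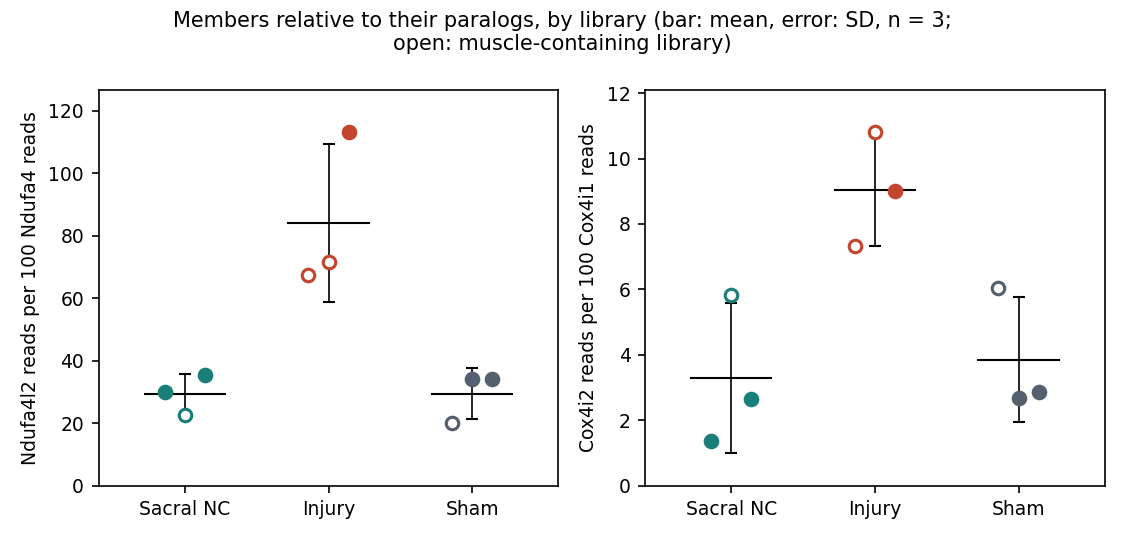
Reads of Ndufa4l2 per 100 reads of Ndufa4 (left) and of Cox4i2 per 100 reads of Cox4i1 (right) in each library of Sacral NC, Injury and Sham, with open circles for muscle-containing libraries, bars for the mean and error bars for the SD (n = 3). The Ndufa4l2 ratio averaged 83.9 in Injury, against 29.3 in Sacral NC and 29.5 in Sham, and the 3 Injury points lie above all others in both panels.

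Other genes of this family and of the hypoxia response were read from fixed lists. Of the 2 tested relatives of Higd1b, Higd1a had a log2 fold change of 0.41 ± 0.22 in Injury against Sham and Higd2a of −0.15 ± 0.14, and neither passed. Of 22 hypoxia genes, 1 rose in Injury against Sham and 0 fell, near the 4.43 % called over all genes, and 11 lay above 0, with a median log2 fold change of 0.03 against −0.04 over all tested genes. The gene that rose was P4ha1, the catalytic subunit of collagen prolyl hydroxylase, at 236 CPM in Injury and 118 CPM in Sham (log2 fold change 1.00 ± 0.17, SE, adjusted p = 0.0194 by edgeR). The HIF targets Car9, Pfkfb3 and Hk2 did not pass there, with log2 fold changes of 2.56 ± 0.72, −0.64 ± 0.15 and −0.68 ± 0.19. Vegfa, the main angiogenic growth factor, had 0.20 ± 0.16. Against Injury, 2 of the 22 were called in Sacral NC, both higher, where 6.96 % of all genes were called. These were Pfkfb3, a regulator of glycolysis, at 31.1 CPM in Sacral NC and 14.5 CPM in Injury, and the stress gene Ndrg1, at 406 CPM in Sacral NC and 169 CPM in Injury.

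Within the Notch axis, Heyl (ENSRNOG00000015318, chromosome 5, 135508160 to 135525152), a transcriptional repressor switched on by Notch signalling in mural cells, was the called gene. It stood at 32.4, 26.9 and 21.6 CPM in Sacral NC, 37.2, 46.3 and 40.6 CPM in Injury, and 22.6, 25.6 and 23.9 CPM in Sham. The 3 Injury libraries were the highest, and Sacral NC spread on both sides of the Sham range. The log2 fold change was 0.78 ± 0.15 in Injury against Sham (SE, adjusted p = 0.0295 by edgeR) and −0.62 ± 0.15 in Sacral NC against Injury (adjusted p = 0.0481). Both calls were close to the threshold. Injury against Sham did not pass without Injury 1, 2 or 3 or without Sham 1, 2 or 3 (adjusted p = 0.0564, 0.0881, 0.0911, 0.0862, 0.0913 and 0.125). Sacral NC against Injury passed only without Sacral NC 1 or Sacral NC 2 among the 9 libraries left out in turn, and its adjusted p otherwise lay between 0.0734 and 0.132. Direction held in every one of these, at 0.70 to 0.86 and at −0.77 to −0.51.

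Notch3 (ENSRNOG00000004346, chromosome 7, 11133706 to 11184025), the Notch receptor of mural cells, stood at 115, 96.3 and 89.6 CPM in Sacral NC, 121, 140 and 128 CPM in Injury, and 118, 119 and 97.4 CPM in Sham. The 3 Injury libraries were the highest, though Injury 1 was only just above Sham 1 and 2, and the other groups overlapped. Its log2 fold change of 0.22 ± 0.12 in Injury against Sham did not pass (adjusted p = 0.33 by edgeR), nor did that of −0.37 ± 0.12 in Sacral NC against Injury (adjusted p = 0.101). In the authors' deposited table Sacral NC over Injury was −0.40 with an adjusted p of 0.0373. Set against its receptor within each library, Heyl had 28.3, 27.9 and 24.1 reads per 100 Notch3 reads in Sacral NC, 30.6, 33.1 and 31.7 in Injury, and 19.2, 21.5 and 24.6 in Sham. The Injury ratios stood above all others.

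Of 27 tested genes of the pathway list, which holds Heyl and Notch3, Heyl rose in Injury against Sham and 0 fell. This is 1 of 27, near the 4.43 % called over all genes, with 18 below 0 and a median of −0.17 against −0.04 over all genes. For 9 of the 27 every Injury library lay below every Sham library and for 4 above, against 19.9 % and 15.4 % of all tested genes. The related target genes Hey1, Hey2 and Hes1 had log2 fold changes of −0.06 ± 0.18, 0.12 ± 0.26 and −0.06 ± 0.18 (SE). Jag1, a ligand carried by endothelium and mural cells, had −0.22 ± 0.19, and the endothelial ligand Dll4 −0.38 ± 0.27. With transplantation, against Injury, Heyl fell and 3 genes rose, where 6.96 % of all genes were called. These were Notch1, a receptor of endothelium among other cells, at 94 CPM in Sacral NC and 69.1 CPM in Injury (adjusted p = 0.0498 by edgeR), and the glycosyltransferase genes Lfng and Mfng, which modify Notch receptors. Lfng averaged 43.8 CPM in Sacral NC and 24.4 CPM in Injury (adjusted p = 0.0209), and Mfng 11.1 CPM in Sacral NC and 5.75 CPM in Injury (adjusted p = 0.02). In Sham, Notch1, Lfng and Mfng averaged 92.1, 35.5 and 8.51 CPM. Their log2 fold changes in Injury against Sham were −0.41, −0.54 and −0.56, which did not pass (adjusted p = 0.0754, 0.0945 and 0.108 by edgeR). In Sacral NC against Sham 0 of the 27 were called, where 0 % of all tested genes were called.

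Of the surface receptors, Pdgfrb (ENSRNOG00000018461, chromosome 18, 54499964 to 54538843) encodes the PDGF receptor that pericytes need for recruitment. It stood at 146, 184 and 169 CPM in Sacral NC, 216, 199 and 280 CPM in Injury, and 209, 173 and 189 CPM in Sham. Injury 3 was the highest library, and Injury 1 and 2 lay near the Sham range. The log2 fold change was 0.28 ± 0.15 in Injury against Sham (adjusted p = 0.31 by edgeR) and −0.48 ± 0.15 in Sacral NC against Injury (adjusted p = 0.0936), with a 95% interval of −0.82 to −0.13 for the second. The second passed at −0.56 without Sacral NC 2 (adjusted p = 0.0459) and did not pass when any other library was left out, with −0.39 without Sacral NC 1 (adjusted p = 0.259). In the authors' deposited table it was −0.50 with an adjusted p of 0.0321. Of the 6 PDGF ligands and receptors 0 were called in any comparison. Over all tested genes 4.43 % were called in Injury against Sham, 6.96 % in Sacral NC against Injury and 0 % in Sacral NC against Sham. Pdgfb, the endothelial ligand of this receptor, had log2 fold changes of −0.17 ± 0.16 in Injury against Sham and 0.04 ± 0.16 in Sacral NC against Injury (SE). Pdgfd, another ligand of PDGFRB, averaged 0.53 ± 0.15 higher on the log2 scale in Sacral NC than in Injury, which did not pass (adjusted p = 0.0749).

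Cspg4 (ENSRNOG00000017208, chromosome 8, 57264962 to 57300010) encodes NG2, a proteoglycan of the pericyte surface that is also made by smooth muscle and glial precursors. Its level was 35.7, 99.6 and 51.8 CPM in Sacral NC, 99.6, 98.9 and 115 CPM in Injury, and 90.4, 44.0 and 47.7 CPM in Sham. Sacral NC 2 and Sham 1, both muscle-containing, stood near the Injury libraries, and the other 4 libraries of these groups stood between 35.7 and 51.8 CPM. The log2 fold change was 0.78 ± 0.39 in Injury against Sham and −0.74 ± 0.39 in Sacral NC against Injury (SE), and neither passed (adjusted p = 0.278 and 0.256 by edgeR). Without Sacral NC 2 the second was −1.26 and passed (adjusted p = 0.0354), the 1 call when each of 9 libraries was left out, and without Sacral NC 1 it was −0.46 (adjusted p = 0.553). The annotation places the gene Odf3l1, with at most 20 reads in any library, on the other strand within Cspg4.

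Cspg4 and Cox4i2 were highest in the same 5 libraries as the smooth muscle genes, though not in the same order. The 14 genes of the smooth muscle list, all tested and with 0 at zero reads, summed to 3020, 14100 and 4680 CPM in Sacral NC, 10300, 9650 and 7780 CPM in Injury, and 11500, 5270 and 4880 CPM in Sham. The 5 libraries with the highest sum were the 5 with the highest Cspg4 and the 5 with the highest Cox4i2. Skeletal muscle genes summed to 52.4 to 2730 CPM in Sacral NC, 138 to 37500 CPM in Injury and 71.2 to 10300 CPM in Sham, and Injury 3 was low by that list. The part of the smooth muscle signal in the levels of Cspg4 and Cox4i2 was not tested. The fits that follow take up skeletal muscle alone and are given for Cspg4. With the skeletal muscle score as a covariate its log2 fold change in Injury against Sham was 0.68 ± 0.32 (SE), which did not pass (adjusted p = 0.308 by edgeR). Without the 4 muscle-containing libraries, which leaves Injury 3 alone in its group, it was 1.37. Injury 3, at 7780 CPM, also had the highest smooth muscle sum of the libraries left. Among the muscle-containing libraries Cspg4 stood at 99.6 CPM in Sacral NC 2, 99.6 and 98.9 CPM in Injury 1 and 2, and 90.4 CPM in Sham 1.

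**Figure D4:**
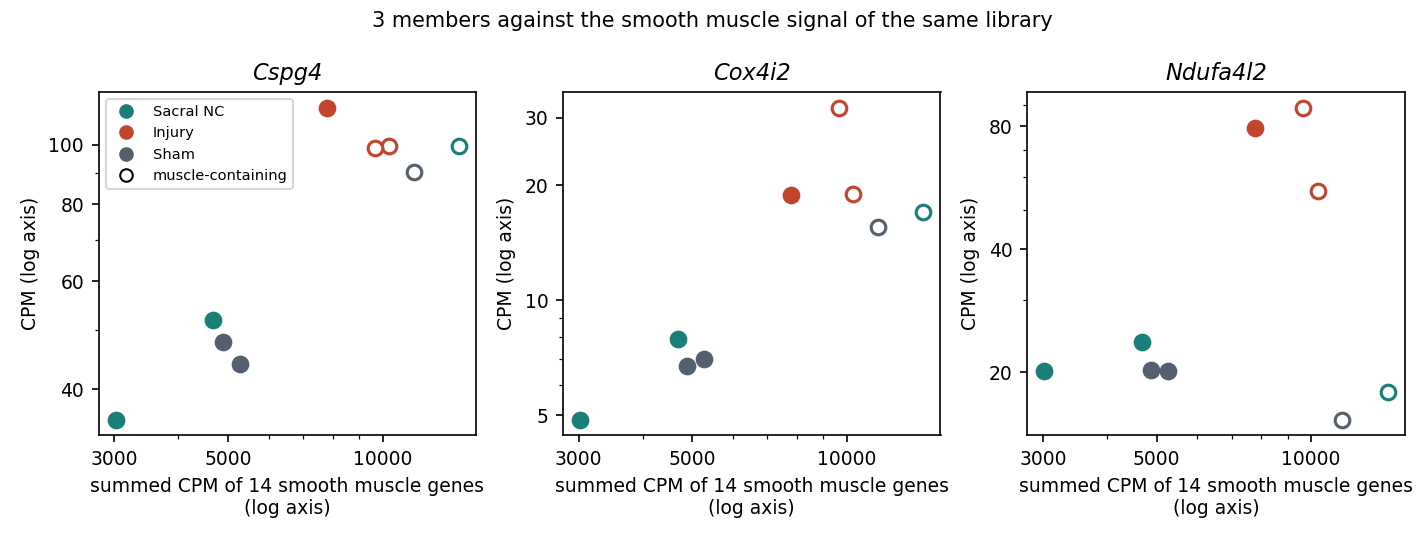
Level of Cspg4, Cox4i2 and Ndufa4l2 (vertical log axes, CPM) against the summed level of 14 smooth muscle genes in the same library (horizontal log axis, CPM), with colours for the groups and open circles for muscle-containing libraries. For Cspg4 and Cox4i2 the 5 libraries with the most smooth muscle signal are the 5 highest, whatever their group, while for Ndufa4l2 the 3 Injury libraries, at 55.5 to 88.8 CPM, stand apart from Sacral NC 2 at 17.9 CPM and Sham 1 at 15.3 CPM.

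The channel genes gave no call. Kcnj8 and Abcc9 encode the pore (Kir6.1) and the regulatory subunit (SUR2) of the vascular ATP-sensitive potassium channel, and lie 16943 bases apart on the same strand of chromosome 4 (Kcnj8 at 175508912 to 175515603, ENSRNOG00000013463, and Abcc9 at 175532547 to 175655356, ENSRNOG00000036960). Kcnj8 stood at 16.1, 14.6 and 17.8 CPM in Sacral NC, 15.4, 14.4 and 16.5 CPM in Injury, and 16.0, 14.5 and 12.8 CPM in Sham. It varied least of the 9 genes, with an SD of 0.14 on the log2 scale over the 9 libraries, against 0.98 for Ndufa4l2. In Injury against Sham the 95% interval of its fold was 0.877 to 1.31, and in Sacral NC against Injury 0.857 to 1.28. Abcc9 stood at 43.9, 38.5 and 49.0 CPM in Sacral NC, 55.3, 75.4 and 45.7 CPM in Injury, and 66.2, 53.7 and 43.4 CPM in Sham, and the groups overlapped. Its log2 fold change in Sacral NC against Injury was −0.42 ± 0.21 (SE) and did not pass (adjusted p = 0.237 by edgeR).

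Within each library there were 36.6, 38.0 and 36.3 Kcnj8 reads per 100 Abcc9 reads in Sacral NC, 27.9, 19.1 and 36.2 in Injury, and 24.1, 27.0 and 29.5 in Sham. Sacral NC was above Sham in every library, and Injury 3 lay just below Sacral NC. The lowest ratios were those of Injury 2 and Sham 1, the libraries with the most skeletal muscle reads. Their Abcc9 levels were the highest, at 75.4 and 66.2 CPM. The part of skeletal muscle in this ratio was not tested. The counterpart genes are Kcnj11, for a pore found in striated muscle and endocrine cells, and Abcc8, for a regulatory subunit of endocrine cells. Kcnj11 stood at 0.722, 3.17 and 0.125 CPM in Sacral NC, 2.16, 33.5 and 0.307 CPM in Injury, and 10.3, 0.498 and 0.34 CPM in Sham, and was highest in the 4 muscle-containing libraries. Abcc8 stood at 0.18, 1.04 and 0.375 CPM in Sacral NC, 0.261, 6.65 and 0.245 CPM in Injury, and 1.51, 0.553 and 0.283 CPM in Sham, with muscle-containing Injury 1 among the lower libraries.

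Rgs5 (ENSRNOG00000002730, chromosome 13, 81836304 to 81885518) encodes a protein that shuts off G protein signals of contractile receptors and is among the most used pericyte markers. It stood at 107, 95.6 and 146 CPM in Sacral NC, 125, 144 and 156 CPM in Injury, and 125, 151 and 107 CPM in Sham, with overlap between all groups. Its fold in Injury against Sham had a 95% interval of 0.829 to 1.48 and in Sacral NC against Injury of 0.613 to 1.1. Of the 7 tested genes of its family, the R4 RGS proteins, 0 were called in Injury against Sham, where 4.43 % of all tested genes were called. The leukocyte gene Rgs1 rose in Sacral NC against Injury (adjusted p = 0.0404 by edgeR). It was the 1 call among these 7, where 6.96 % of all tested genes were called. It stood at 9.74, 2.2 and 28.8 CPM in Sacral NC and 1.5, 1.11 and 0.859 CPM in Injury. Rgs4, also found in pericytes, had a log2 fold change of 0.38 ± 0.12 in Injury against Sham (SE, adjusted p = 0.106).

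Further pericyte genes outside the 10 gave no call. Of 12 listed, 11 were tested, and 0 passed in any of the 3 comparisons. Their medians were 0.01, −0.02 and 0.12 in Injury against Sham, Sacral NC against Injury and Sacral NC against Sham. Over all tested genes 4.43 %, 6.96 % and 0 % were called, with medians of −0.04, 0.03 and 0.003, so 0 of 11 was near those shares. Foxs1, a forkhead factor of mural cells, came nearest, at 3.55, 3.23 and 3.0 CPM in Sacral NC, 5.03, 5.68 and 5.77 CPM in Injury, and 3.79, 2.66 and 3.29 CPM in Sham. Its adjusted p was 0.0708 in Injury against Sham and 0.0601 in Sacral NC against Injury (edgeR). Atp13a5, a marker of brain pericytes, had at most 2 reads in any library and was not tested. Mcam, an adhesion protein of mural and endothelial cells, had 0.01 ± 0.35 in Injury against Sham on the log2 scale (SE), and Anpep, an aminopeptidase of pericytes and fibroblasts, −0.19 ± 0.18. In Sacral NC against Injury Anpep had 0.635 ± 0.179 (adjusted p = 0.0712 by edgeR), opposite in sign to Foxs1. Of the 11 tested, 6 lay above 0 and 5 below in Injury against Sham. In Sacral NC against Injury 5 lay above 0 and 6 below.

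The endothelium lines the capillary that pericytes wrap. Of 14 endothelial genes 8 fell and 0 rose in Injury against Sham (median log2 fold change −0.69), where 1.34 % of all tested genes fell and their median was −0.04. In Sacral NC against Injury 7 rose and 0 fell (median 0.56), where 3.26 % of all tested genes rose and their median was 0.03. Among them was Tek, the TIE2 receptor through which pericyte angiopoietin steadies endothelium, at 189 CPM in Sacral NC, 97.3 CPM in Injury and 166 CPM in Sham. It fell in Injury against Sham (log2 fold change −0.77 ± 0.13, adjusted p = 0.0204 by edgeR) and rose in Sacral NC against Injury (0.96 ± 0.14, adjusted p = 0.00839). Its ligand gene Angpt1, made by mural cells, had −0.05 ± 0.40 and 0.10 ± 0.40. Smooth muscle genes, the other mural list, gave 0 calls of 14 in each comparison, where 4.43 %, 6.96 % and 0 % of all tested genes were called. Their medians were 0.31 in Injury against Sham and −0.28 in Sacral NC against Injury. By sign they went the way of the pericyte genes, with 13 of 14 above 0 in the first and 14 below 0 in the second. Yet the libraries overlapped for all 14 in both, and 0 had an unadjusted p under 0.05 (edgeR). All 14 were read from the same libraries, and their sum ran from 3020 to 14100 CPM within Sacral NC alone. The signs are thus not independent of each other. As a description, the mean log2 CPM of the 9 pericyte genes minus that of the endothelial genes was −1.81, −1.28 and −1.46 in Sacral NC, −0.33, −0.20 and −0.07 in Injury, and −1.40, −1.52 and −1.60 in Sham. The Injury libraries stood apart from the other 6, and Sacral NC overlapped Sham. Both terms differed. The pericyte mean was 5.925 to 6.186 in Injury, 5.233 to 5.501 in Sacral NC and 5.261 to 5.615 in Sham. It does not stand for an even rise of the 9 genes. Their log2 fold changes in Injury against Sham ran from 0.10 for Kcnj8 to 2.00 for Ndufa4l2, with 1.25 for Cox4i2. For the 11 tested pericyte genes outside the 10, the mean was 4.105 to 4.401 in Injury, 4.095 to 4.464 in Sacral NC and 4.125 to 4.372 in Sham. By that mean all groups overlapped. The endothelial mean was 6.151 to 6.387 in Injury, 6.781 to 7.039 in Sacral NC and 6.856 to 7.011 in Sham. The pericyte mean minus that of the smooth muscle genes was −1.74, −3.67 and −2.26 in Sacral NC, −2.77, −2.53 and −2.20 in Injury, and −3.31, −2.41 and −2.41 in Sham, and all groups overlapped.

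**Figure D5:**
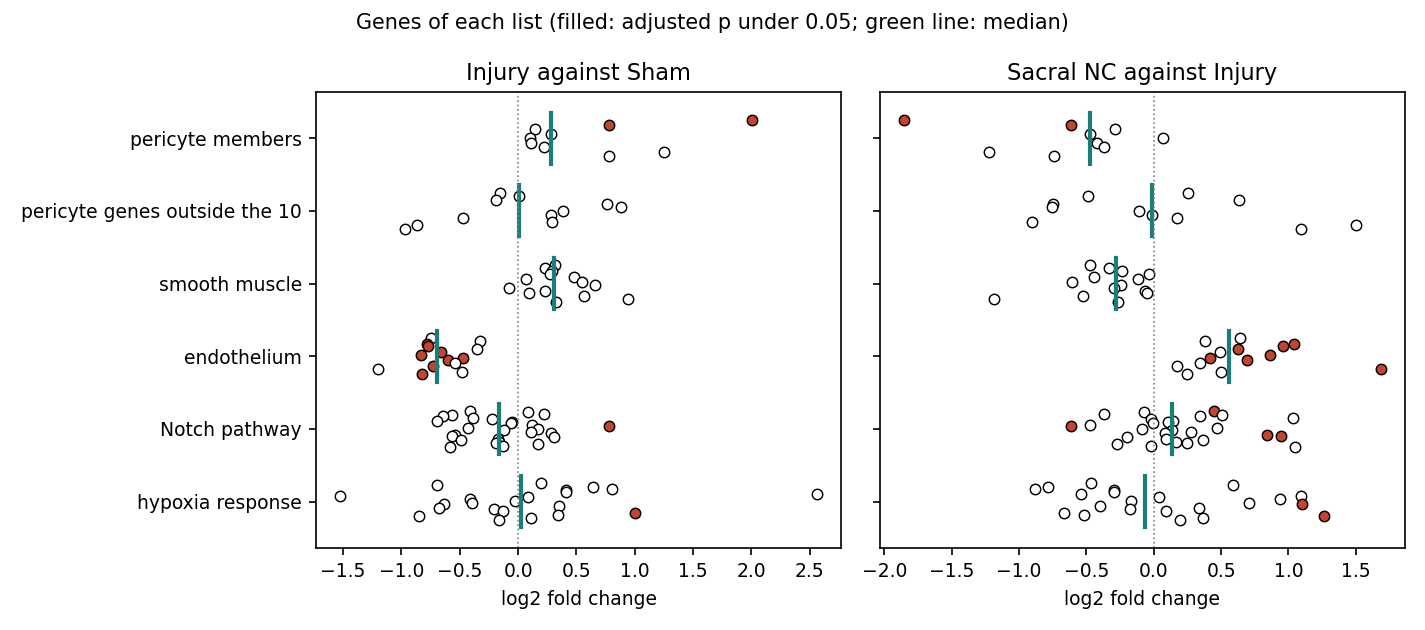
Log2 fold change (horizontal axes) of every tested gene of 6 lists in Injury against Sham (left) and Sacral NC against Injury (right), with filled circles for an adjusted p under 0.05 and a green line for the list's median. The 9 pericyte genes lie above 0 on the left and 8 of them below 0 on the right, while the 14 endothelial genes lie on the opposite side in both panels. The smooth muscle genes share the pericyte direction, with 13 of 14 above 0 on the left and all 14 below 0 on the right. Of these 0 are filled, and the libraries overlapped for all 14 in both comparisons.

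The nearest patterns to the called genes were found by the root mean square difference of log2 CPM over the 9 libraries, each gene centred on its own mean, among 12336 protein-coding genes with a mean scaled count of at least 50. For Ndufa4l2 these were the growth regulator gene Cgref1 (0.23), the fibrillar collagen gene Col5a1 (0.23) and Lox, which encodes the enzyme that cross-links collagen (0.25). Their log2 fold changes, given as a description since the genes were picked for this pattern, were 1.98, 1.90 and 2.05 in Injury against Sham and −1.96, −1.99 and −1.88 in Sacral NC against Injury. For Heyl they were the tetraspanin gene Tspan6 (0.08), the myogenic inhibitor gene Mdfi (0.12) and the vesicle gene Sytl4 (0.12). Among the 9 pericyte genes, Rgs5 and Kcnj8 were the closest pair, at 0.22, and Ndufa4l2 and Kcnj8 the farthest, at 0.93. No other pericyte gene lay nearer to Ndufa4l2 than Heyl, at 0.62. Collagen shares and dividing cell genes were high in the same 3 Injury libraries as Ndufa4l2. Dividing cell genes summed to 24.7 to 36.3 CPM in Sacral NC, 125 to 215 CPM in Injury and 39.5 to 55.9 CPM in Sham, and their part in its level was not tested.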

How the data were processed

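Messenger RNA of rat penile tissue was sequenced in 9 libraries, 3 each from the Sacral NC, Injury and Sham groups. Groups and replicate numbers come from the sample titles. Per the file headers, the authors deposited 3 tables of raw read counts for 21124 genes, with their own log2 fold change and adjusted p-value for each pair of groups. The aligner HISAT2 2.0.5 and the mouse build GRCm38.p6 are listed in the submitters' processing notes, while all 21124 identifiers are rat. No label or header names the counting tool or its strand setting.

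The tables were joined (0 values differed between them) and tested with edgeR 4.0.16 in R 4.3.3, using the quasi-likelihood F-test with TMM scaling and the default low-count filter, which kept 15509 genes. A single model with 1 mean for each group was fitted to the 9 libraries, leaving 6 residual degrees of freedom. P-values were adjusted by Benjamini-Hochberg over all tested genes, and a gene was called under 0.05. SE values come from the F statistic, and intervals are 95% intervals of the fit. CPM values use TMM-scaled library sizes, and log2 CPM a prior count of 2. The fit was checked on simulated counts. DESeq2 1.42.0, run on the same counts, gave log2 fold changes within 0.01 of the authors' deposited ones for all 21124 genes in each of the 3 tables.

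The members and all lists were chosen with earlier results of these data known. All pericyte genes with a row are named, with the called genes of the small lists and, for called pericyte genes, the 3 nearest patterns; genes named from a list without a call were chosen after their values were seen. A planned motif search in promoters was not run, since the promoter sequences at hand are from mouse. Where nothing says that libraries came from separate animals, p-values measure only the spread between these libraries. With counts of this depth, genes with few reads carry a large counting error.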

Additional observations from a re-analysis of the deposited data

How the results depend on the processing

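The call of Ndufa4l2 held in Injury against Sham under 16 of 17 alternatives and in Sacral NC against Injury under all 17. The exception was the fit without the 4 muscle-containing libraries, where the log2 fold change was 2.01 with an adjusted p of 0.101 and a single Injury library stands for its group. Heyl was called under 8 and 6 of 17. None of the 9 pericyte genes was called in Sacral NC against Sham under any of the 17.

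In Injury against Sham 2 pericyte genes were called, against 1 with the replicate number as a block, 1 with the skeletal muscle score as covariate and 0 without the muscle-containing libraries, with 1 to 2 when each library was left out. Over all genes 687 were called, against 1581 with DESeq2, 267 with the block, 1456 with only the 2 groups in the fit, 1 without the muscle-containing libraries, and 21 (without Sham 3) to 1329 (without Sacral NC 2) when each library was left out. In Sacral NC against Injury the 2 called pericyte genes became 4 with DESeq2, and 1 each with the block, with only the 2 groups, with the muscle score and without the muscle-containing libraries, with 1 to 5 when each library was left out. All genes called there numbered 1080, against 2275 with DESeq2, 471 with the block, 239 with only the 2 groups, 534 with the muscle score, 59 without the muscle-containing libraries, and 285 (without Sacral NC 1) to 3574 (without Sacral NC 2) when each library was left out. In Sacral NC against Sham 0 genes were called, against 61 with DESeq2 and 0 to 106 (without Sacral NC 2) when each library was left out. The 5 pericyte genes called without Sacral NC 2 were Ndufa4l2, Heyl, Pdgfrb, Cox4i2 and Cspg4.

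Changes near 0 switched sign. Abcc9 in Injury against Sham was −0.021 with the muscle score and −0.048 without the muscle-containing libraries, and −0.11 to 0.28 when each library was left out. Kcnj8 in Sacral NC against Injury was −0.016 without the muscle-containing libraries, and −0.035 to 0.132 when each library was left out. In Sacral NC against Sham, Cox4i2 was −0.084 with the block and −0.12 without the muscle-containing libraries, and Cspg4 −0.08 without them. When each library was left out there, Cox4i2 ran from −0.61 to 0.53, Cspg4 from −0.47 to 0.44 and Rgs5 from −0.326 to 0.002. For these changes the cause was not tested. RLE scaling, TMM factors without collagen genes and no low-count filter changed no call of a pericyte gene. Correlations of the deviations of same-numbered libraries ran from −0.55 to 0.62 over the 9 pairs. They were positive for number 3 in all 3 pairs of groups (0.346, 0.271 and 0.62) and of mixed sign for numbers 1 and 2, so the numbers were not taken to pair the libraries.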
